A study of Mus musculus with 28 samples.

Results

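RNA-seq was compared between mouse embryonic stem cells (ESCs) with a Tet2 mutation and wild-type ESCs, over 17338 of the 17342 genes in the deposited table. The comparison took 5 of the 7 RNA-seq libraries: 2 Tet2-Mut clones and 3 Tet2-WT lines described in the series as independent. The other 2 libraries, clones of Tet2-KO ESCs, shared the estimate of the spread and served as a second reference. All lines are male V6.5 cells of mixed 129/C57BL/6 origin. They were grown in serum with LIF, the cytokine that sustains self-renewal, kept on feeder cells, separated from those by pre-plating and left on gelatin overnight. Genes entered the comparison by a normalized count of at least 10 in at least 2 of the 7 libraries, a choice that used no difference between the groups. The labels name the genotype "Tet2 mutant" without describing the change in the protein. Each Tet2-Mut and Tet2-KO library is 1 clone, so differences between clones and differences between genotypes rest on the same few libraries.

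Tet2 is one of the Tet dioxygenases, which oxidize 5-methylcytosine in DNA and so promote the loss of cytosine methylation. Tet proteins also bind partners, among them the Sin3a histone deacetylase complex, and can act through them without the enzymatic step. In ESCs a mutant that keeps the protein and a knockout that loses it therefore address different functions of the same gene. The series asks about the noncatalytic functions of Tet2.

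Tet2 itself (chromosome 3, 133463677 to 133545136, mm10) had normalized counts of 10343, 10244 and 12074 in the Tet2-WT libraries and 9992 and 13181 in the Tet2-Mut libraries, against 4624 and 5206 in the Tet2-KO libraries. The Tet2-Mut and Tet2-WT values overlapped, and the log2 fold change was 0.08 (SE 0.12, limma adjusted p = 0.763). The values are gene counts that the authors divided by DESeq2 size factors, and fold changes are differences of log2(normalized count + 1), Tet2-Mut minus Tet2-WT.

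The 7 libraries held 41.9 M to 58.5 M reads assigned to genes. Of the counts of 1 to 20 reads, 72.1% to 75.2% were even in each library, and no label or header says whether the mates of a pair were counted separately, in which case the fragments would be fewer than the reads. Of 12 ESC markers, all were in the table and 1, Nanog, was called lower, and their summed normalized counts were 342302 to 348412 in Tet2-WT and 341768 and 352696 in Tet2-Mut. The summed level of 9 measured feeder fibroblast markers of 11 was 1640 to 1853 in Tet2-WT, 2823 and 1971 in Tet2-Mut and 4858 and 3170 in Tet2-KO, with 0 of them at 0 in the 5 compared libraries. The summed level of 7 trophectoderm markers was 11170 to 12995 in Tet2-WT and 8742 and 8889 in Tet2-Mut, below the range of Tet2-WT. Tfap2c, which is also an ESC factor and was called lower, made up most of each of these sums. Hand1 was called lower too. Cdx2, with a log2 fold change of 0.08, and Elf5, Krt8, Krt18 and Gata3 were not called. The summed level of 4 neurectoderm markers was 6425 to 7616 in Tet2-WT and 9445 and 10077 in Tet2-Mut, above that range. For 4 mesoderm markers the sum was 613 to 727 in Tet2-WT and 456 and 393 in Tet2-Mut, below it. Eomes, the 1 mesoderm marker called lower, made up most of each of these sums. T, Mixl1 and Mesp1 had log2 fold changes of 0.355, 0.23 and 1.70 and were not called. For 6 primitive endoderm markers the sum was 333 to 515 in Tet2-WT and 344 and 735 in Tet2-Mut. The part of other cell types in the results was not tested. In bulk RNA, fewer cells of a type and less RNA per cell cannot be told apart. The 2 Tet2-Mut clones stood apart from each other: their root mean square log2 difference was 0.475, against 0.220 to 0.272 between Tet2-WT libraries. Replicate 1 lay 0.376 to 0.424 from the Tet2-WT libraries and replicate 2 lay 0.515 to 0.607 from them. These distances were taken over genes with a mean normalized count of at least 50 over the 7 libraries.

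Against Tet2-WT, 594 genes passed the test in Tet2-Mut (limma, Benjamini-Hochberg adjusted p under 0.05), 250 higher and 344 lower, which is 3.43% of the genes tested (1.44% higher and 1.98% lower). The lower genes changed more: 147 of them differed at least 2-fold, against 21 of the higher genes. Their median log2 fold change was -0.88, while that of the higher genes was 0.46, and that of all genes tested was 0.01. The libraries of the groups did not overlap for any of the 594 genes, which also held for 40.7% of all genes tested. When chromosomes 8 and 14 were centred in each library, an alternative chosen after seeing the data, 418 genes passed, 98 higher and 320 lower. Without the genes of chromosome 8, also chosen after seeing the data, 343 passed, 79 higher and 264 lower. The number of calls depended on single libraries. Without Tet2-WT replicate 1, 2 or 3 it was 7, 6 and 123, where the unadjusted p was under 0.05 for 2255, 2482 and 3197 genes and the edgeR calls numbered 6, 1 and 81. Leaving out Tet2-Mut replicate 1 gave 2198, and without Tet2-Mut replicate 2 it was 219, with 74 higher and 145 lower. Of the 594 genes, 540 were also called by edgeR's quasi-likelihood test and 583 by DESeq2, both on the recovered reads.

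The calls for 7 genes stood in at least 6 of the 7 fits that left out 1 library. H19, Rhox5, Rhox6, Rhox9, Mapt and Zc3hav1 were lower and were called in each of them. Tbc1d9 was higher and lost its call only without Tet2-WT replicate 2 (adjusted p = 0.0622). With no trend in the prior variance limma called 0 genes and each of the 7 lost its call (adjusted p from 0.0547 for H19 to 0.0946 for Rhox5), where 3018 genes had an unadjusted p under 0.05. With the replicate number as a block, H19, Rhox5, Rhox6 and Rhox9 were called, and Mapt, Zc3hav1 and Tbc1d9 were not (adjusted p = 0.0682, 0.0721 and 0.0774). Each other called gene named here lost its call without Tet2-WT replicate 1 and without Tet2-WT replicate 2. Over all 594 genes, 435 lost it without Tet2-Mut replicate 2 and 36 without Tet2-Mut replicate 1, while 148 held it in both fits that left out a clone.

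H19 (chromosome 7, 142575530 to 142578146), the maternally expressed imprinted noncoding RNA next to Igf2, had the smallest p. Its normalized count was 3330.5, 2534 and 2752 in the Tet2-WT libraries and 126 and 112 in the Tet2-Mut libraries. Both clones were near each other and far below every Tet2-WT library, a 24.2-fold lower mean (log2 fold change -4.58, SE 0.24, adjusted p = 0.000254). The Tet2-KO libraries, at 285 and 542, lay between the other groups, and the difference from Tet2-KO was -1.72 (adjusted p = 0.00788).

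The Rhox genes are a cluster of X-linked homeobox genes that act mainly in reproductive tissues and the placenta. Of 5 tested, 3 were called, 60% against 3.43% of all genes tested. These 3 members, Rhox5, Rhox6 and Rhox9, are neighbours among the genes tested. Rhox5 (chromosome X, 37754608 to 37808878) had 7913, 7544 and 6111 normalized counts in Tet2-WT and 2273 and 1516 in Tet2-Mut (log2 fold change -1.94, SE 0.17, adjusted p = 0.00344). Rhox6 (chromosome X, 37827055 to 37829857) had 1165, 1226 and 888 against 189 and 137 (-2.74, SE 0.20, adjusted p = 0.0025). Rhox9 (chromosome X, 37899097 to 37901770) had 1139, 990.4 and 745 against 189 and 169.8 (-2.39, SE 0.19, adjusted p = 0.00255). In all 3 genes replicate 2 was the lower clone, and both clones lay below every Tet2-WT and Tet2-KO library. Rhox6 and Rhox9 are close relatives, so reads may be shared between them. The other measured members of the cluster did not pass: Rhox1 with -1.38 (adjusted p = 0.112) and Rhox13 with -0.54 (adjusted p = 0.716). The remaining 11 of 16 listed Rhox genes were not among the genes tested.

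Zc3hav1 (chromosome 6, 38305286 to 38355352) encodes ZAP, an antiviral protein that binds RNA rich in CpG. It had 2884, 2529 and 2527 normalized counts in Tet2-WT and 1128 and 1045 in Tet2-Mut (log2 fold change -1.28, SE 0.11, adjusted p = 0.00344). Mapt (chromosome 11, 104229409 to 104332090), the gene of the microtubule-binding protein tau, had 1492, 1383 and 1458 against 549 and 571 (-1.36, SE 0.11, adjusted p = 0.00255). Tbc1d9 (chromosome 8, 83165352 to 83272940), which encodes a protein with a TBC domain of the kind that acts on Rab GTPases, had 1422, 1315 and 1217 in Tet2-WT and 2722 and 2447 in Tet2-Mut (0.97, SE 0.10, adjusted p = 0.00556), with 1451 and 1519.8 in Tet2-KO. For these 3 genes the 2 clones lay nearer to each other than to any Tet2-WT library.

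**Figure D1:**
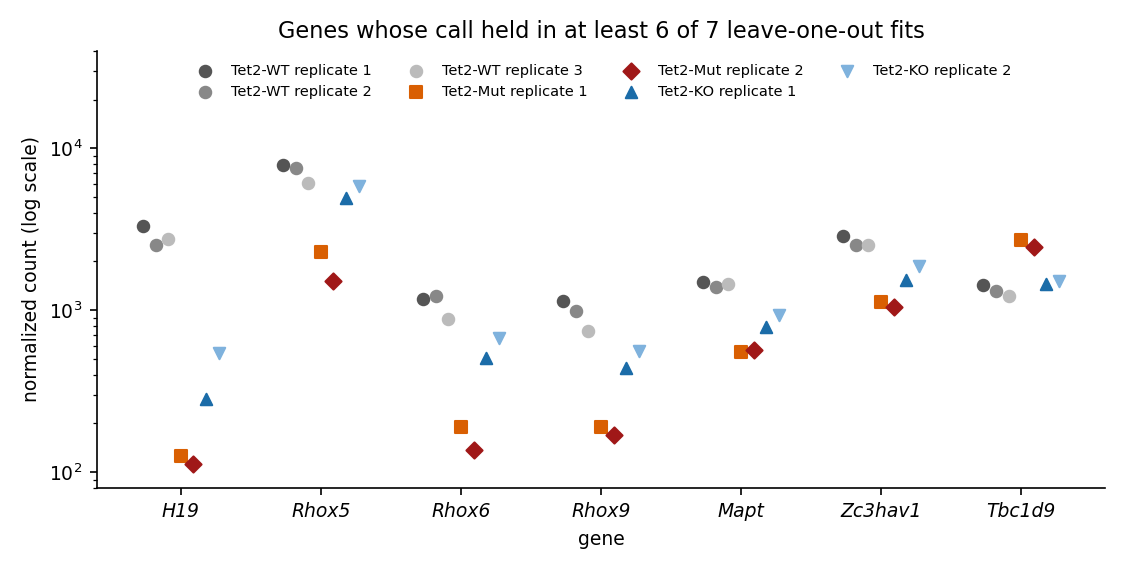
Normalized count on a log scale in each of the 7 libraries for the 7 genes whose call held in at least 6 of 7 leave-one-out fits, 1 point per library. The Tet2-Mut points lie below all Tet2-WT points for 6 genes and above them for Tbc1d9, and H19 is lowest at 126 and 112.

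Because the Tet enzymes act on methylated CpG sites, the bases upstream of the start are shown for those of these genes that the RefSeq promoter table (GRCm38.p6, the mm10 assembly) holds, 3 of 7, with each CpG in capitals. The 250 bases upstream of Rhox5 (chrX:37754358-37754607, + strand), Tbc1d9 (chr8:83165102-83165351, + strand) and Zc3hav1 (chr6:38354604-38354853, - strand) read as follows.
Rhox5: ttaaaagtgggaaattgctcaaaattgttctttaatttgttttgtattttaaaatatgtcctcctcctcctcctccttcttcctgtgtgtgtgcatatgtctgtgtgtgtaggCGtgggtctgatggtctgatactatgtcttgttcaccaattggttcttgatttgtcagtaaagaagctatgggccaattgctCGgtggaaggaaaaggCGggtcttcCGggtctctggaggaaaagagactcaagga
Tbc1d9: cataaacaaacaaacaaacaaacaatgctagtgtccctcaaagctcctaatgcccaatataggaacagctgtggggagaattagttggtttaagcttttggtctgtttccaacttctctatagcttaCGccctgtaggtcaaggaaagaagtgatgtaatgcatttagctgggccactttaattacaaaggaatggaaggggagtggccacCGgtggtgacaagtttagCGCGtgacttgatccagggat
Zc3hav1: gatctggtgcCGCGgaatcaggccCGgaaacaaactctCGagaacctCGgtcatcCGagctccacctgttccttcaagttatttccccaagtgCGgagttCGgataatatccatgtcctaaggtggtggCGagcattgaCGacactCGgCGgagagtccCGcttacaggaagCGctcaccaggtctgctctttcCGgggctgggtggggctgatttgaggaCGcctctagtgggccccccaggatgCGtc
Rhox5 and Tbc1d9 have 4 CpG sites each in these windows, and Zc3hav1 has 17. Among the 27025 genes in the promoter table, 63.9% have at least 4 CpG sites in the same 250 bases of their CpG-richest entry, and 25.6% have at least 17. The motif searched was CG, which reads the same on both strands. H19, Rhox6, Rhox9 and Mapt are named only.

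The higher genes were concentrated on 1 chromosome. Of the 250 higher genes, 136 (54.4%) lie on chromosome 8, which holds 4.97% of the genes tested, and 6 of the lower genes do. Across the 862 tested genes of chromosome 8, the median log2 difference from the Tet2-WT mean was 0.28 in Tet2-Mut replicate 1 and 0.27 in replicate 2. It was -0.03, -0.02 and 0.05 in the Tet2-WT libraries and -0.28 and -0.24 in the Tet2-KO libraries, so the groups did not overlap. The shift ran along the whole chromosome: in each of 13 windows of 10 Mb both clones had a median above 0, from 0.23 to 0.33 in replicate 1 and from 0.14 to 0.33 in replicate 2. Over the whole of chromosome 14 only Tet2-Mut replicate 2 stood apart, with a median of 0.49 against -0.05 in replicate 1. In replicate 2 the median was above 0 in 11 of 12 windows of that chromosome. The first window, of 33 genes, had -0.27 in replicate 2, -0.22 in replicate 1 and 0.48 in Tet2-KO replicate 1. The other 18 chromosomes compared, chromosome X among them, had medians between -0.04 and 0.07 in both clones.

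**Figure D2:**
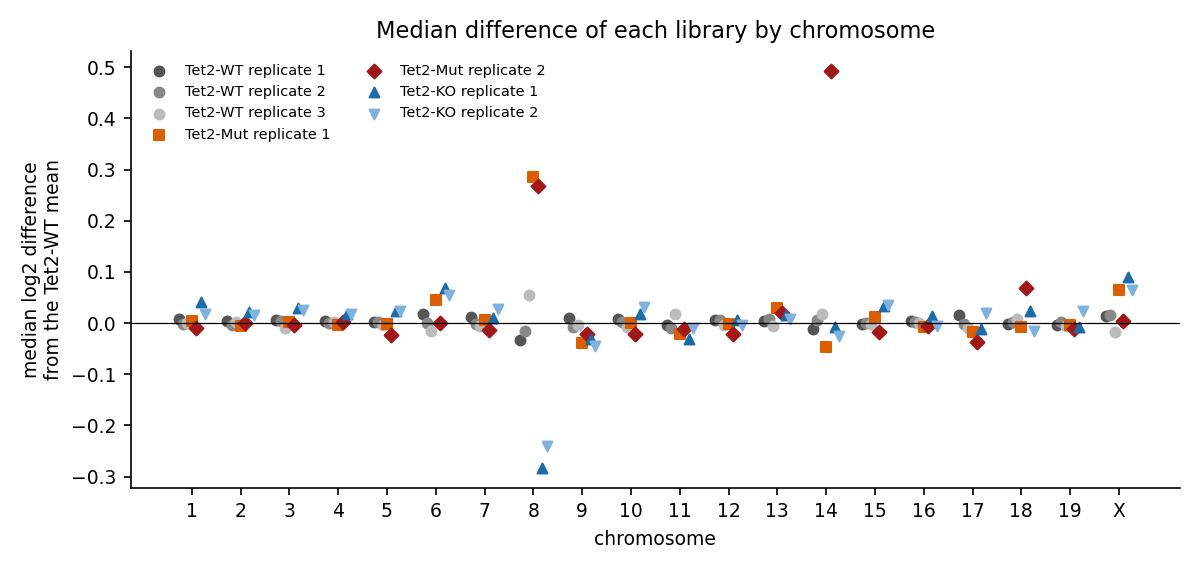
Median log2 difference from the Tet2-WT mean over the genes of each chromosome (x axis), 1 point per library. Both Tet2-Mut clones lie near 0.28 on chromosome 8, where the Tet2-KO clones lie at -0.28 and -0.24, and Tet2-Mut replicate 2 lies at 0.49 on chromosome 14.

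Of the 862 tested genes of chromosome 8, 695 had a positive fold change. The 136 called higher had log2 fold changes from 0.30 to 1.11 with a median of 0.43. They include Cdh1, the E-cadherin adhesion molecule (32788, 31791 and 34169.6 in Tet2-WT, 44224 and 40557 in Tet2-Mut, log2 fold change 0.36), Hmox1, which degrades heme (0.55), and Hmgb2, a chromatin protein (0.35). Also among them are Sf3b3, a splicing factor (0.42), Vps36, an ESCRT subunit (0.63), Cdc16, a subunit of the anaphase-promoting complex (0.54), and Mak16, a ribosome assembly factor (0.61). Adad2 (1.11) was the highest and Tbc1d9 (0.97) among the highest. With chromosomes 8 and 14 centred, 4 of the 136 stayed called higher, Tbc1d9 (adjusted p = 0.0217), Adad2 (0.0392), Ier2 (0.0453) and Eif4ebp1 (0.0484). The number of copies of the chromosomes was not measured, and its part in these differences was not tested.

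The Y-linked genes differed between the clones as well. Eif2s3y, a translation factor, had 957, 872 and 775 normalized counts in Tet2-WT, 6243 and 5.79 in the 2 Tet2-Mut clones and 39.2 and 1566 in the 2 Tet2-KO clones. Ddx3y, an RNA helicase, had 623, 595 and 661, then 1655 and 5.79, then 43.4 and 2143 in the same order. In these 2 genes and in Uty, Zfy1 and Uba1y, Tet2-Mut replicate 1 was above every Tet2-WT library and replicate 2 below each of them. Kdm5d differed, with 16.6, 30.1 and 66.1 in Tet2-WT and 22.7 and 3.86 in Tet2-Mut, where replicate 1 lay within the Tet2-WT range. Limma called 3.43% of all genes tested. Of 6 Y-linked genes tested, 0 passed in Tet2-Mut against Tet2-WT by limma or edgeR, and 0 had an unadjusted p under 0.05. Without Tet2-Mut replicate 1 limma called 4 of them lower.

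The 2 clones moved in the same direction for the called genes but not by the same amount. The 344 lower genes had a median log2 difference from the Tet2-WT mean of -0.77 in replicate 1 and -0.97 in replicate 2, and 252 of them lay farther from Tet2-WT in replicate 2. For the 104 higher genes off chromosomes 8 and 14 the medians were 0.47 and 0.62, with 73 farther in replicate 2. For the 136 on chromosome 8 both medians were 0.43. The agreement in sign is part of what the test selects.

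**Figure D3:**
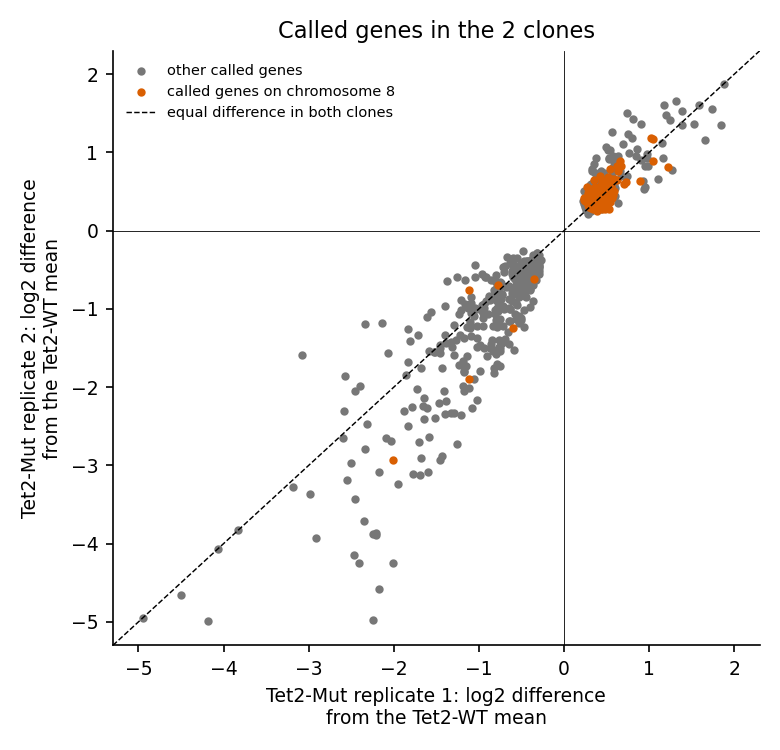
Log2 difference from the Tet2-WT mean in Tet2-Mut replicate 1 (x axis) and replicate 2 (y axis) for the 594 called genes, 1 point per gene, with chromosome 8 genes in orange and a dashed line of equal difference. The orange points cluster near 0.43 on both axes, and more of the lower genes lie below the line, farther from Tet2-WT in replicate 2.

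Genes of the trophectoderm and trophoblast, the lineage that forms the placenta, were the list with the most called members. Of 30 tested, 24 had a negative fold change, as did 48.5% of all genes tested. The median log2 fold change was -0.56 against 0.01 over all genes tested. Of the 30, 11 were lower and 0 higher, 36.7% called against 3.43% of all genes tested. Besides H19 and the 3 Rhox genes, which also count on other lists, these were transcription factors, a growth factor receptor and epithelial genes. The lists and their members were chosen with earlier results of these data known. The share called here and those of the other lists therefore describe the calls and test nothing. Hand1, a basic helix-loop-helix factor needed for trophoblast giant cells, had 123, 94.1 and 101 normalized counts in Tet2-WT and 22.7 and 11.6 in Tet2-Mut (-2.63, SE 0.35, adjusted p = 0.0141). Both clones were far below the lowest Tet2-WT value. Fgfr2, the receptor through which FGF4 sustains trophoblast stem cells, had 1557, 1369.8 and 1218 against 768 and 590.4 (-1.03, SE 0.15, adjusted p = 0.0188). Tfap2c, an AP-2 factor of the trophectoderm and of ESCs, had 8007, 7580.3 and 6914 against 5049 and 4569 (-0.64, adjusted p = 0.0493), and Eomes, a T-box factor, had 578, 667 and 587 against 393 and 303 (-0.82, adjusted p = 0.035). Lgals3, a galectin (-1.03), Krt19, a keratin (-0.81), and Tfrc, the transferrin receptor (-0.48), fell as well. Within each of these 7 genes the clones lay below every Tet2-WT library. The groups also did not overlap for any of the 594 called genes, nor for 40.7% of all genes tested. Some defining factors did not pass: Cdx2 had 11.7, 18.8 and 14.2 against 12.4 and 19.3 (0.08, adjusted p = 0.945), Elf5 had 51.6, 26.4 and 26 against 4.12 and 15.4 (-1.88, adjusted p = 0.123) and Gata3 had 53.3, 41.4 and 63.7 against 2.06 and 19.3 (-2.75, adjusted p = 0.0696), with the clones far apart for the latter. Tfap2c passed neither by edgeR (adjusted p = 0.0567) nor with chromosomes 8 and 14 centred (adjusted p = 0.0536), and Tfrc did not pass by edgeR (adjusted p = 0.0534). Of the trophoblast genes, leaving out Tet2-WT replicate 1, 2 or 3 gave 4, 4 and 7 calls, and leaving out Tet2-Mut replicate 1 or 2 gave 14 and 9. H19, Rhox5, Rhox6 and Rhox9 were called in each of these fits.

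**Figure D4:**
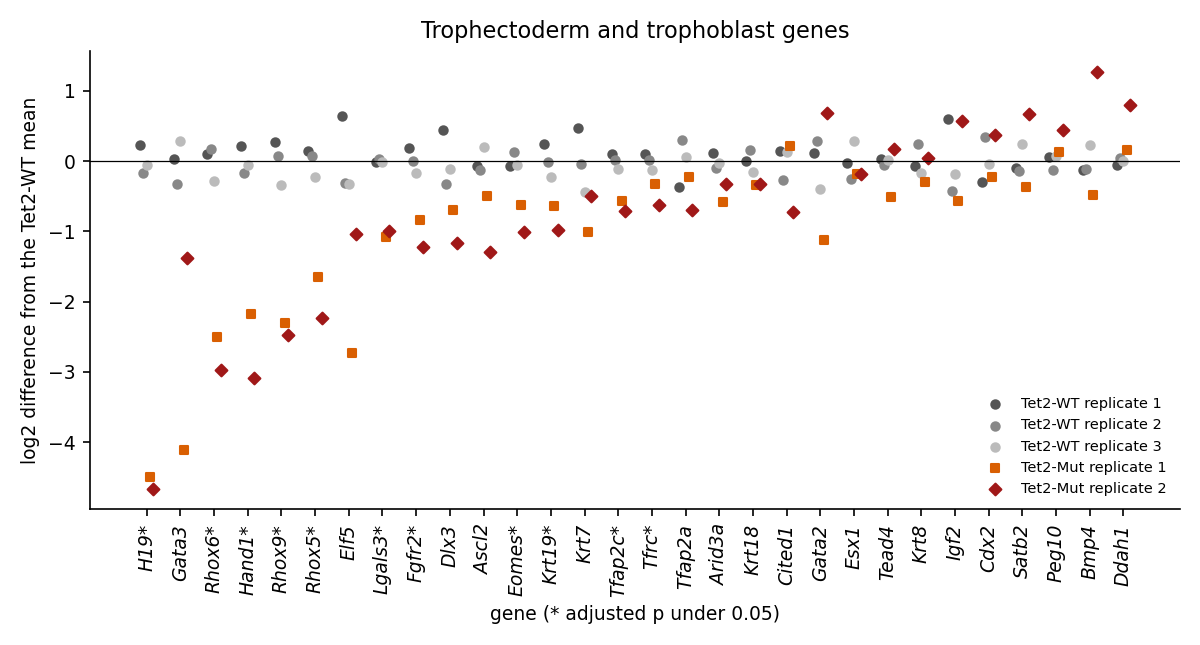
Log2 difference from the Tet2-WT mean in the 5 compared libraries for the 30 trophectoderm and trophoblast genes, ordered by fold change, with called genes marked by an asterisk. The median of the list is -0.56, and both clones lie below all Tet2-WT points for the 11 called genes, as for every gene called lower.

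Imprinted genes are expressed mainly from 1 parental copy, which for many but not all of them is set by DNA methylation. Of 52 tested, 4 were higher and 3 lower (13.5%, against 3.43% of all genes tested), with a median log2 fold change of 0.18. With chromosomes 8 and 14 centred, 3 were higher and 1 lower, and edgeR called 5 higher and 1 lower. Meg3 and Rian, noncoding RNAs of the same maternally expressed cluster on chromosome 12, were higher together: Meg3 had 9887, 9651 and 9479.5 normalized counts in Tet2-WT and 13079.9 and 16415 in Tet2-Mut (0.60, SE 0.10, adjusted p = 0.0227), and Rian had 10556, 11158 and 10832 against 14135 and 17966 (0.56, adjusted p = 0.0235). Both overlap Rtl1 in the annotation, and the sources used here do not state whether the counting used strand. Phlda2, which restrains placental growth, rose by 0.55 (adjusted p = 0.0249) and Gab1, an adaptor on chromosome 8, by 0.46. Peg3, a paternally expressed zinc finger gene, had 6235, 5748 and 5969.5 against 4535 and 3038 (-0.69, adjusted p = 0.049), and Igf2r, the receptor that clears Igf2, fell by 0.43 (adjusted p = 0.0492). Neither of these 2 passed with the chromosomes centred (adjusted p = 0.0533 and 0.0533) or by edgeR (adjusted p = 0.057 and 0.0542). Igf2 itself, the neighbour of H19, had 319.6, 155 and 185 normalized counts in Tet2-WT and 141 and 313 in Tet2-Mut and did not pass (0.0034, adjusted p = 0.997), with 1 clone above and 1 below the Tet2-WT mean. Of the imprinted genes, leaving out Tet2-WT replicate 1, 2 or 3 gave 1, 1 and 2 calls, and leaving out Tet2-Mut replicate 1 or 2 gave 16 and 5.

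Among 12 genes of DNA methylation and its removal, 1 was higher and 2 were lower (25%, against 3.43% of all genes tested). Dnmt3a, a de novo methyltransferase, had 8279.5, 8916 and 9582 normalized counts in Tet2-WT and 12296 and 14903 in Tet2-Mut (0.60, SE 0.11, adjusted p = 0.0313). Its catalytically inactive partner Dnmt3l had 15496, 15289 and 16020.3 against 11232 and 7714 (-0.74, adjusted p = 0.0323), with replicate 2 the lower clone. Uhrf1, which brings the maintenance methyltransferase to hemimethylated DNA, had 23508, 23389 and 22933 against 18933 and 18812 (-0.30, adjusted p = 0.0328), with the clones close together. Dnmt3l overlaps Aire on chromosome 10, which also fell. Tet1, the other main Tet gene of ESCs, had 27345, 26939 and 29189 against 31464 and 37431 and did not pass (0.30, adjusted p = 0.0765), nor did Dnmt3b (0.25, adjusted p = 0.334). Of the methylation genes, leaving out Tet2-WT replicate 1, 2 or 3 gave 0, 0 and 0 calls, and leaving out Tet2-Mut replicate 1 or 2 gave 6 and 0, with 5, 6, 6 and 7 at an unadjusted p under 0.05 and 0 called by edgeR where limma called 0.

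The Sin3a complex removes histone acetyl groups and is a binding partner of Tet proteins. Of 26 measured genes listed here as Sin3a complex genes, 2 were higher and 0 lower (7.69%, against 3.43% of all genes tested). Their median log2 fold change was 0.06. The list also holds transcription factors that are not core subunits, Fos, Foxk1, Foxk2, Mxd3 and Mnt, which were not called. Sap30 had 4710.2, 4695 and 4729 normalized counts in Tet2-WT and 5799 and 5804 in Tet2-Mut (0.30, adjusted p = 0.0444), and Ing1, a reader of histone methylation, had 4600.4, 4752 and 4707 against 5891 and 6454 (0.40, adjusted p = 0.0255). Both lie on chromosome 8 and had lower values in Tet2-KO, at 3799 and 4120.1 and 4351 and 4520.2, the order of the whole chromosome. With chromosomes 8 and 14 centred limma called 0 of the 26, where 7 had an unadjusted p under 0.05, and edgeR without the centring called 2. Sin3a itself had 14206, 13759 and 14236 against 13274 and 12273 (-0.14, adjusted p = 0.225). Of the Sin3a complex genes, leaving out Tet2-WT replicate 1, 2 or 3 gave 0, 0 and 0 calls, and leaving out Tet2-Mut replicate 1 or 2 gave 5 and 0, with 4, 4, 6 and 6 at an unadjusted p under 0.05 and 0 called by edgeR where limma called 0.

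Polycomb complexes deposit repressive marks on histones. Of 33 genes, 1 was higher and 3 lower (12.1%, against 3.43% of all genes tested). Phf19, a factor that recruits Polycomb repressive complex 2, had 2823, 2759 and 2644 normalized counts in Tet2-WT and 1323 and 1386 in Tet2-Mut (-1.02, SE 0.11, adjusted p = 0.00631), against 2266 and 2885 in Tet2-KO. The core subunits Suz12 and Eed moved in opposite directions, Suz12 with -0.44 (adjusted p = 0.0227) and Eed with 0.41 (adjusted p = 0.0368). Pcgf5, a subunit of a variant Polycomb repressive complex 1, fell by 0.86. Pcgf5 passed neither by edgeR (adjusted p = 0.061) nor with chromosomes 8 and 14 centred (adjusted p = 0.0543). Of the Polycomb genes, leaving out Tet2-WT replicate 1, 2 or 3 gave 0, 0 and 1 calls, and leaving out Tet2-Mut replicate 1 or 2 gave 10 and 1, with 5 and 5 at an unadjusted p under 0.05 and 0 called by edgeR where limma called 0.

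Of 28 naive and core pluripotency genes, 1 was higher and 2 lower, 10.7% against 3.43% of all genes tested, with a median log2 fold change of 0.05. Tbx3, a T-box factor of the naive state, had 5245, 5231 and 5645 normalized counts in Tet2-WT and 2498 and 2265 in Tet2-Mut (-1.17, SE 0.12, adjusted p = 0.0058), and 2523 and 3401 in Tet2-KO. Nanog, a core factor of the network, had 25897, 23922 and 24977 against 19927 and 18677 (-0.37, adjusted p = 0.0457), and Fbxo15, a known Oct4 target, had 7347, 7229 and 7426 against 8638 and 10430.3 (0.37, adjusted p = 0.0494). Pou5f1, which encodes Oct4, had 52319, 55480.3 and 58392 against 59096 and 72697 and did not pass (0.24, adjusted p = 0.19). Nanog did not pass by edgeR (adjusted p = 0.055), nor did Fbxo15 with chromosomes 8 and 14 centred (adjusted p = 0.0533). Among the naive and core genes, leaving out Tet2-WT replicate 1, 2 or 3 gave 0, 0 and 1 calls, and leaving out Tet2-Mut replicate 1 or 2 gave 8 and 1, with 8 and 8 at an unadjusted p under 0.05 and 0 called by edgeR where limma called 0. Of 21 formative and primed genes, 1, Dnmt3a, was higher and 0 lower (4.76%, near the 3.43% of all genes tested). The list median was 0.35 in replicate 1 and -0.18 in replicate 2. Of the formative genes, leaving out Tet2-WT replicate 1, 2 or 3 gave 0, 0 and 0 calls, and leaving out Tet2-Mut replicate 1 or 2 gave 8 and 2, with 4, 4 and 6 at an unadjusted p under 0.05 and 0 called by edgeR where limma called 0.

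Neural and ectodermal genes gave some of the largest rises. Of 32 tested, 3 were higher and 2 lower (15.6%, against 3.43% of all genes tested). The median log2 fold change was 0.37, with medians of 0.33 and 0.49 in the clones. Pax6, a homeobox factor of the neural tube and eye, had 94.9, 143 and 139 normalized counts in Tet2-WT and 458 and 456 in Tet2-Mut (1.88, SE 0.27, adjusted p = 0.0168), a 3.64-fold higher mean. The 2 clones agreed closely. Insm1, a zinc finger factor of neuroendocrine and neural progenitors, had 209.7, 185 and 208 against 500.5 and 633 (1.49, SE 0.17, adjusted p = 0.00925). Slitrk5, a synaptic membrane protein, had 36.6, 54.6 and 44.8 against 152 and 133 (1.65, adjusted p = 0.0399), and lost its call when either clone was left out. Mapt, given above, and Neurl1a, a ubiquitin ligase of the Notch pathway (-0.81, adjusted p = 0.049), were lower. With chromosomes 8 and 14 centred, Slitrk5 and Neurl1a did not pass (adjusted p = 0.0847 and 0.0533). Of the neural genes, leaving out Tet2-WT replicate 1, 2 or 3 gave 1, 1 and 3 calls, and leaving out Tet2-Mut replicate 1 or 2 gave 11 and 4.

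Of 29 primitive streak and mesoderm genes, Eomes and Hand1, also trophoblast genes, were lower and 0 higher (6.9%, against 3.43% of all genes tested). Of the streak genes, leaving out Tet2-WT replicate 1, 2 or 3 gave 0, 0 and 1 calls, and leaving out Tet2-Mut replicate 1 or 2 gave 5 and 1, with 6 and 5 at an unadjusted p under 0.05 and 0 called by edgeR where limma called 0. Of 23 endoderm genes, of 30 fibroblast genes and of 11 Hox genes limma called 0, and edgeR called 0 of each, while the unadjusted p was under 0.05 for 3, 9 and 2. The fibroblast median was 0.64 in replicate 1 and 0.23 in replicate 2, and the Hox median 1.38 and 0.24. The Hox genes had low counts, and 4 of them were at 0 in at least 1 of the 5 compared libraries. Their summed normalized counts were 304, 235 and 293 in Tet2-WT and 322 and 364 in Tet2-Mut. By this sum replicate 2 was the higher clone, unlike by the median. Of the fibroblast genes, leaving out Tet2-WT replicate 1, 2 or 3 gave 0, 0 and 0 calls, and leaving out Tet2-Mut replicate 1 or 2 gave 4 and 0, with 4, 5, 7 and 11 at an unadjusted p under 0.05 and 0, 0, 0 and 1 called by edgeR where limma called 0.

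Of 44 genes of glycolysis and the hypoxia response, 7 were lower and 0 higher (15.9%, against 3.43% of all genes tested). A negative fold change was seen in 41 of them, and in 48.5% of all genes tested. The list median was -0.55, with -0.29 in replicate 1 and -0.70 in replicate 2, and -0.43 and -0.17 in the Tet2-KO libraries. Ldhb, a lactate dehydrogenase subunit, had 10809, 9814 and 7244 normalized counts in Tet2-WT and 3654 and 3415 in Tet2-Mut (-1.37, SE 0.17, adjusted p = 0.0129), against 11150.4 and 14990.3 in Tet2-KO. Hk1, a hexokinase, had 6159.9, 5129.8 and 4436 against 2349.9 and 2219 (-1.19, SE 0.15, adjusted p = 0.0137). Both clones were alike in these genes and, as in every gene called lower, below every Tet2-WT library. Ak4, a mitochondrial adenylate kinase (-0.67), Pygl, the liver glycogen phosphorylase (-2.59), and P4ha2, a collagen prolyl hydroxylase (-1.12), fell too. The last called members were Vegfa, the vascular growth factor (-0.52), and Ndrg1, a stress gene induced in hypoxia (-1.996). Apart from Ldhb, the called members also lay below the Tet2-WT mean in both Tet2-KO libraries. Their log2 differences there were -1.04 and -0.59 for Hk1 and -2.07 and -0.90 for Ndrg1. The most abundant members did not pass: Gapdh had a fold change of -0.06 on the log2 scale, Pkm of -0.22 and Eno1 of -0.16 (adjusted p = 0.726, 0.348 and 0.412). Of the glycolysis genes, leaving out Tet2-WT replicate 1, 2 or 3 gave 0, 0 and 2 calls, and leaving out Tet2-Mut replicate 1 or 2 gave 29 and 3, with 20 and 24 at an unadjusted p under 0.05 and 0 called by edgeR where limma called 0.

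Cells raise genes of the integrated stress response and serine synthesis when amino acids are short. Of 43 such genes, 6 were higher and 0 lower (14%, against 3.43% of all genes tested), with medians of 0.19 and 0.36 in the clones. Mthfd2, a mitochondrial folate enzyme, had 7100.3, 7977 and 8446 normalized counts in Tet2-WT and 10433 and 13019 in Tet2-Mut (0.58, adjusted p = 0.0351). Phgdh, which catalyses the first step of serine synthesis, rose by 0.31, Slc3a2, the heavy chain of amino acid transporters, by 0.46 and Sesn2, a sensor of leucine, by 0.44. The remaining members, Eif4ebp1, which restrains translation (0.57), and Aars, the alanyl-tRNA synthetase (0.49), lie on chromosome 8. With chromosomes 8 and 14 centred 4 of the list were called, Eif4ebp1 among them, so not all of Mthfd2, Phgdh, Slc3a2 and Sesn2 were. Of the stress response genes, leaving out Tet2-WT replicate 1, 2 or 3 gave 0, 0 and 2 calls, and leaving out Tet2-Mut replicate 1 or 2 gave 19 and 1, with 15 and 19 at an unadjusted p under 0.05 and 0 called by edgeR where limma called 0.

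Of 36 cholesterol and fatty acid synthesis genes, 3 were lower and 0 higher (8.33%, against 3.43% of all genes tested). These were the desaturases Fads2 (-0.58) and Scd1 (-0.58), and Ebp, a sterol isomerase (-0.47). The list median was -0.21, with 30 members negative, as were 48.5% of all genes tested. Of the lipid genes, leaving out Tet2-WT replicate 1, 2 or 3 gave 0, 0 and 0 calls, and leaving out Tet2-Mut replicate 1 or 2 gave 10 and 0, with 12, 8, 19 and 11 at an unadjusted p under 0.05 and 0 called by edgeR where limma called 0. Of 29 p53 targets, 3 were higher and 0 lower (10.3%, against 3.43% of all genes tested). These were Zmat3, an RNA-binding protein (0.35), Gadd45a, a growth arrest gene (0.55), and Sesn2. Of the p53 targets, leaving out Tet2-WT replicate 1, 2 or 3 gave 0, 0 and 0 calls, and leaving out Tet2-Mut replicate 1 or 2 gave 10 and 0, with 11, 11, 15 and 11 at an unadjusted p under 0.05 and 0 called by edgeR where limma called 0. Of 13 mitochondrially encoded genes limma and edgeR called 0, and 0 had an unadjusted p under 0.05.

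In the FGF-ERK pathway, which drives ESCs out of the naive state, 4 of 28 genes were higher and 1 lower. That is 17.9% called, against 3.43% of all genes tested. The ligand Fgf1 had 138, 153 and 151 normalized counts in Tet2-WT and 339 and 411 in Tet2-Mut (1.34, SE 0.19, adjusted p = 0.0168). Fgf17 had 1213, 1429 and 1691 against 2123 and 3419 (0.91, adjusted p = 0.043) and Fgfbp1, a secreted carrier of FGFs, rose by 0.71. The ERK inhibitor Spry4 had 7666, 8458 and 10006 against 11673 and 12809 (0.50, adjusted p = 0.0399), and 5760.5 and 5494 in Tet2-KO. The receptor Fgfr2 fell, as given above. Fgf17 lies on chromosome 14, which was shifted in replicate 2. Of the FGF genes, leaving out Tet2-WT replicate 1, 2 or 3 gave 0, 0 and 2 calls, and leaving out Tet2-Mut replicate 1 or 2 gave 15 and 1, with 10 and 10 at an unadjusted p under 0.05 and 0 called by edgeR where limma called 0.

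The Wnt genes gave 1 call in each direction among 29 (6.9%, against 3.43% of all genes tested). The ligand Wnt7b had 3088, 2950.4 and 2357 normalized counts in Tet2-WT and 466 and 767 in Tet2-Mut (-2.21, SE 0.25, adjusted p = 0.00925), with 1251 and 2116 in Tet2-KO. Notum, a secreted enzyme that inactivates Wnt ligands and is a target of the pathway, had 542, 621 and 682 against 1201 and 1213 (0.98, SE 0.13, adjusted p = 0.0136). Of the Wnt genes, leaving out Tet2-WT replicate 1, 2 or 3 gave 0, 0 and 2 calls, and leaving out Tet2-Mut replicate 1 or 2 gave 6 and 2, with 6 and 7 at an unadjusted p under 0.05 and 0 called by edgeR where limma called 0. Among 25 Nodal and BMP genes the inhibitor Smad6 had 849, 789 and 831 against 269 and 384 (-1.35, SE 0.16, adjusted p = 0.0101), and Id2, a BMP target, fell by 0.79 (adjusted p = 0.0263). These 2 calls are 8% of the list, against 3.43% of all genes tested. Limma and edgeR called 0 of the 25 higher and DESeq2 called 2, and limma called 6 higher without Tet2-Mut replicate 1. Of the Nodal and BMP genes, leaving out Tet2-WT replicate 1, 2 or 3 gave 0, 0 and 1 calls, and leaving out Tet2-Mut replicate 1 or 2 gave 10 and 2, with 7 and 7 at an unadjusted p under 0.05 and 0 called by edgeR where limma called 0. Of 18 LIF and Stat3 genes limma and edgeR called 0, and 4 had an unadjusted p under 0.05, while limma called 4 without Tet2-Mut replicate 1. Of 28 immediate early genes Ier2, on chromosome 8, was higher (0.66) and the phosphatase gene Dusp1 lower (-0.40). That is 7.14% called, against 3.43% of all genes tested. Of the immediate early genes, leaving out Tet2-WT replicate 1, 2 or 3 gave 0, 0 and 1 calls, and leaving out Tet2-Mut replicate 1 or 2 gave 11 and 1, with 11 and 11 at an unadjusted p under 0.05 and 0 called by edgeR where limma called 0.

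Germline genes, many of which are silenced by promoter methylation in somatic cells, gave calls in both directions. Of 52 tested germline genes, 1 was higher and 4 lower (9.62%, against 3.43% of all genes tested), with a median of -0.06. Smc1b, a cohesin subunit of meiosis, had 741, 477 and 421 normalized counts in Tet2-WT and 164 and 59.8 in Tet2-Mut (-2.41, adjusted p = 0.0262). Fkbp6, which acts in piRNA biogenesis, had 146, 113 and 163 against 26.8 and 19.3 (-2.56, adjusted p = 0.0313). Hormad2, a protein of meiotic chromosome axes (-1.78), and Tuba3a, a testis tubulin with a near-identical copy (-1.19), fell too. Tex15, a meiotic gene on chromosome 8, had 826, 919.8 and 880.4 against 1630.1 and 1355 (0.76, adjusted p = 0.0234). Tex15 did not pass with chromosomes 8 and 14 centred (adjusted p = 0.083). Of the germline genes, leaving out Tet2-WT replicate 1, 2 or 3 gave 0, 0 and 0 calls, and leaving out Tet2-Mut replicate 1 or 2 gave 14 and 2, with 14, 13 and 17 at an unadjusted p under 0.05 and 0 called by edgeR where limma called 0. Of 20 oocyte and 2-cell genes only Nlrp4a passed (5%, near the 3.43% of all genes tested). It had 126, 97.9 and 62.6 normalized counts in Tet2-WT and 4.12 and 1.93 in Tet2-Mut (-4.58, SE 0.54, adjusted p = 0.0101). The Tet2-Mut values are a few reads each. Of the oocyte genes, leaving out Tet2-WT replicate 1, 2 or 3 gave 0, 0 and 1 calls, and leaving out Tet2-Mut replicate 1 or 2 gave 2 and 1, with 3 and 1 at an unadjusted p under 0.05 and 0 called by edgeR where limma called 0. Of 18 Xlr and other X-linked reproductive genes 2 were lower and 0 higher (11.1%, against 3.43% of all genes tested). Usp26, a testis deubiquitinase, had 269, 347 and 319.8 against 76.2 and 15.4 (-3.13, adjusted p = 0.0234), and Xlr3a had 103, 104 and 70.8 against 18.5 and 1.93 (-3.61, adjusted p = 0.0322). Xlr3a has near-identical copies, so its count is uncertain. Of the X-linked reproductive genes, leaving out Tet2-WT replicate 1, 2 or 3 gave 0, 0 and 0 calls, and leaving out Tet2-Mut replicate 1 or 2 gave 4 and 2, with 7, 5 and 5 at an unadjusted p under 0.05 and 0 called by edgeR where limma called 0.

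Among 34 interferon and antigen presentation genes, 1 was higher and 3 lower (11.8%, against 3.43% of all genes tested). Tapbp, the tapasin gene of class I peptide loading, had 1616, 1510.0 and 1549.6 normalized counts in Tet2-WT and 1017 and 900.1 in Tet2-Mut (-0.70, adjusted p = 0.0227), against 2321 and 1874 in Tet2-KO. The guanylate-binding protein Gbp3 (-2.20) and Xaf1, a proapoptotic interferon target (-2.02), fell from low levels, and Ifitm3 rose by 0.32. Of the interferon genes, leaving out Tet2-WT replicate 1, 2 or 3 gave 0, 0 and 0 calls, and leaving out Tet2-Mut replicate 1 or 2 gave 11 and 0, with 10, 9, 12 and 8 at an unadjusted p under 0.05 and 0 called by edgeR where limma called 0. Parp12, an interferon-induced ADP-ribosyltransferase on no list, had 918, 880.2 and 904 against 442 and 385 (-1.13, SE 0.11, adjusted p = 0.00556). Of 26 keratin and junction genes, Cdh1 and the tight junction gene Ocln (0.99) were higher and Krt19 lower (11.5%, against 3.43% of all genes tested). Of the junction genes, leaving out Tet2-WT replicate 1, 2 or 3 gave 0, 0 and 0 calls, and leaving out Tet2-Mut replicate 1 or 2 gave 10 and 1, with 7, 7 and 11 at an unadjusted p under 0.05 and 0 called by edgeR where limma called 0.

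Of 39 ion channel and synaptic genes, 2 were higher and 2 lower (10.3%, against 3.43% of all genes tested). Kcnj3, an inward rectifier potassium channel, had 135, 113 and 132 normalized counts in Tet2-WT and 281 and 276 in Tet2-Mut (1.13, adjusted p = 0.0273). Grin1, the obligatory subunit of NMDA receptors, had 1911, 1304 and 1176 against 302 and 96.5 (-3.06, SE 0.61, adjusted p = 0.0351), with replicate 2 well below replicate 1, and it overlaps an antisense gene. Of the channel genes, leaving out Tet2-WT replicate 1, 2 or 3 gave 0, 0 and 0 calls, and leaving out Tet2-Mut replicate 1 or 2 gave 8 and 1, with 8, 11 and 13 at an unadjusted p under 0.05 and 0 called by edgeR where limma called 0. Of 35 phosphoinositide and calcium genes, Plcb1 (1.60) and Dgka (0.54) were higher and Plcd1 (-0.90) lower: phospholipases C and a diacylglycerol kinase. That is 8.57% called, against 3.43% of all genes tested. Of the phosphoinositide genes, leaving out Tet2-WT replicate 1, 2 or 3 gave 0, 0 and 0 calls, and leaving out Tet2-Mut replicate 1 or 2 gave 7 and 1, with 8, 12 and 11 at an unadjusted p under 0.05 and 0 called by edgeR where limma called 0.

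**Figure D5:**
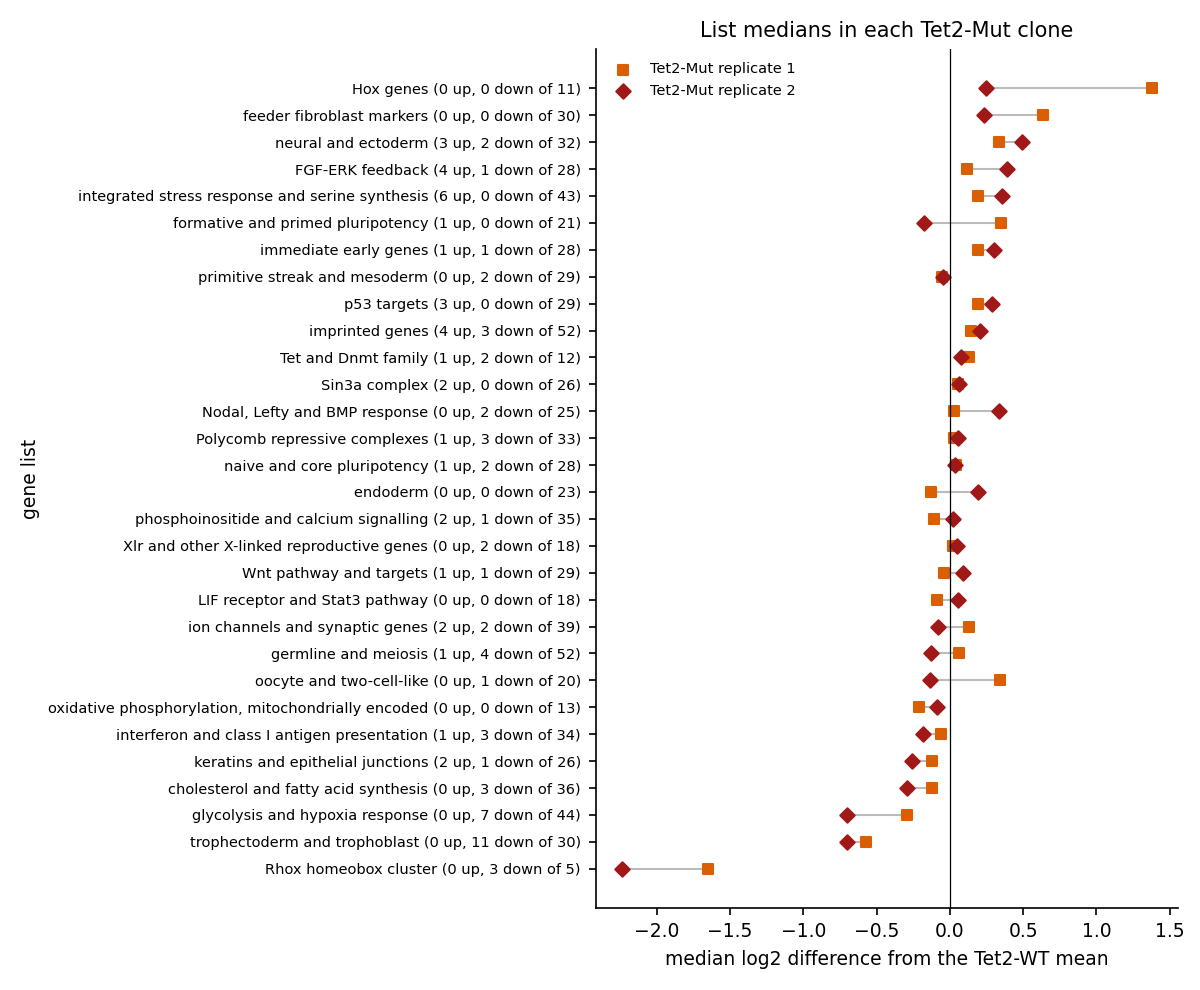
Median log2 difference from the Tet2-WT mean over the members of 30 gene lists in Tet2-Mut replicate 1 (squares) and replicate 2 (diamonds), with the called members up and down of those tested beside each name. The trophoblast list lies below 0 in both clones, and the glycolysis list lies farther from 0 in replicate 2. The fibroblast list and the Hox list, whose genes have low counts, lie farther from 0 in replicate 1.

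The largest rises and falls reached beyond these lists. Car2, a carbonic anhydrase, had 1563, 1534 and 1594 normalized counts in Tet2-WT and 3723 and 4181 in Tet2-Mut (1.33, SE 0.18, adjusted p = 0.0141), and more still in Tet2-KO, 8191 and 4860.3. Dpp4, a membrane peptidase, had 533, 595 and 653 against 1546 and 1515 (1.37, adjusted p = 0.0227). Smarca1, the chromatin remodeller SNF2L, had 331, 371 and 358 against 1116 and 789 (1.41, adjusted p = 0.0168). In these 3 genes every Tet2-Mut value was more than 2-fold above every Tet2-WT value. Satb1, a chromatin organizer, rose by 1.13 and Hsd17b1, an estrogen-making enzyme, by 1.39 from a low level.

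Among the genes that fell most, Aire, the regulator of self-antigen expression in the thymus, had 5265, 4599 and 3544 normalized counts in Tet2-WT and 949 and 297 in Tet2-Mut (-3.05, SE 0.41, adjusted p = 0.0145), against 889 and 1421 in Tet2-KO. Cdc42ep2, an effector of Cdc42, had 313, 281 and 219.5 against 33 and 25.1 (-3.18, SE 0.34, adjusted p = 0.00631). Fat2, an atypical cadherin, had 119, 58.4 and 82.6 against 8.24 and 7.72 (-3.23, adjusted p = 0.0129). The noncoding RNA Platr15 (-3.38), Fhad1 (-3.33) and the oxidase Aox3 (-2.95) fell from means under 100 normalized counts. Of more abundant genes, Ucp2, a mitochondrial carrier, had 12234, 11868 and 11476 against 6142 and 5104 (-1.08, SE 0.10, adjusted p = 0.00556) and Rbm47, an RNA-binding protein, had 5324, 4972 and 4564 against 2622 and 2656 (-0.91, SE 0.09, adjusted p = 0.00556). The most abundant called genes moved by little: Myh9, nonmuscle myosin, by -0.44, Serbp1, an mRNA-binding protein, by 0.30 and Hnrnpa2b1, a splicing regulator, by 0.28.

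Against Tet2-KO, 1074 genes passed in Tet2-Mut, 616 higher and 458 lower, 6.19% of those tested. This comparison shares the Tet2-Mut libraries with the one above, so each is given by its own values. With the chromosome 8 genes left out it was 397, 125 higher and 272 lower, and with chromosomes 8 and 14 centred it was 501, 155 higher and 346 lower. In a fit of only the 4 libraries of these 2 groups limma called 0, where 2357 had an unadjusted p under 0.05, and edgeR on all 7 libraries called 1054. Leaving out Tet2-Mut replicate 1 or 2 gave 2679 and 732, leaving out Tet2-WT replicate 1, 2 or 3 gave 605, 530 and 661, and leaving out Tet2-KO replicate 1 gave 552. Usp26 differed from Tet2-KO by -3.15 (adjusted p = 0.0142), with Tet2-KO at 321 and 310.2, in the range of Tet2-WT. Hand1 differed by -2.35 (adjusted p = 0.00948), with Tet2-KO at 99.1 and 76.5. Glrx, a glutaredoxin, had 309, 207 and 215 in Tet2-WT, 76.2 and 44.4 in Tet2-Mut and 322 and 271 in Tet2-KO (-2.02 against Tet2-WT, -2.32 against Tet2-KO). In these 3 genes the Tet2-Mut clones lay below the libraries of both other groups. Every gene called against Tet2-WT had no overlap with Tet2-WT, as had 40.7% of all genes tested. The share of genes apart from both groups was not counted. Fgf1 differed in the other direction, by 1.33 (adjusted p = 0.00818), with Tet2-KO at 134 and 163, and so did Cspg4b, a proteoglycan gene, with 762, 694 and 789.6 in Tet2-WT, 1474 and 1420.0 in Tet2-Mut and 744 and 500.4 in Tet2-KO (1.24 against Tet2-KO, adjusted p = 0.00564). By contrast Car2, Pax6, Insm1, Grin1, Tbx3 and Aire did not pass against Tet2-KO (adjusted p = 0.0829, 0.539, 0.614, 0.915, 0.242 and 0.225), which does not show that their levels were equal there.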

How the data were processed

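Total RNA from 7 ESC libraries was sequenced. The authors deposited DESeq2-normalized gene counts, a signal on a linear scale. The submitters' processing notes name Trim Galore 0.6.5, STAR 2.7.3a, featureCounts, DESeq2 and mm10, with no annotation or strand setting stated. All values were whole multiples of 1 step per library (tolerance 0.01 reads), which gave back reads. Symbols were matched to RefSeq GRCm38.p6 for 16103 genes (92.9%). Groups were compared with limma 3.58.1 (R 4.3.3) on log2(normalized count + 1), in 1 model of group means over the 7 libraries with a prior variance following the mean and Benjamini-Hochberg adjustment over 17338 genes. With 4 residual degrees of freedom the spread is shared by the groups, and p-values measure only the spread between these libraries. edgeR 4.0.16 and DESeq2 1.42.0 on the reads, other pseudocounts, filters, scalings and priors, and leaving out each library were alternatives. In simulated counts for Tet2-Mut against Tet2-WT (17312 genes), the changed genes were drawn from those with a mean above 50. Recovery was 54%, 80% and 100% for genes raised 1.5-, 2- and 4-fold and 70% for those halved to 0.5. It was not measured for genes of lower level. Of the calls, 10.6% were false, more than the adjusted p threshold of 0.05 allows for.

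Genes named are Tet2, then, of the called genes that average 50 or more in the higher group, do not overlap and have no predicted-gene name, the 15 highest and 15 lowest by fold, 12 each way by p and 8 each way by level. Then come up to 6 called and 3 abundant members of each of 31 lists, runs of at least 3 neighbouring called genes, and genes that also differ from Tet2-KO. Some genes the rule takes are left unnamed. Igf2r, Ndrg1, Igf2, Cdx2, Elf5, Gata3 and Sin3a, and the Rhox genes beyond the rule, were named after their values were seen. Members and lists were chosen with earlier results of these data known. The 3 bisulfite and 18 CUT&Tag samples were not used here.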

Additional observations from a re-analysis of the deposited data

How the results depend on the processing

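The number of genes that passed in Tet2-Mut against Tet2-WT, 594, was within 1.5 times of that under other pseudocounts, filters and scalings, array weights, a robust prior and edgeR (491 to 664). It was 1555 with DESeq2, 900 with only the 2 groups compared, and 0 with no trend in the prior variance, where 3018 genes had an unadjusted p under 0.05. It was 343 with chromosome 8 left out, an alternative chosen after seeing the data. Leaving out 1 library gave 6 to 2198. With the replicate number as a block it was 7, with 0 higher. The deviations of same-numbered libraries from their group means had correlations of 0.087 and -0.053 for Tet2-Mut with Tet2-WT. The deviations of the 2 Tet2-Mut libraries are exact opposites, so these correlations cannot decide whether same-numbered libraries share a source. The numbers mark no shared source in the labels, and a shared source was not tested. In Tet2-Mut against Tet2-KO the count was 1074. It was 1808 with DESeq2, 688 with array weights, 467 with the replicate block, 10 with no trend and 0 with only the 2 groups compared, where 2357 had an unadjusted p under 0.05 and edgeR on all groups called 1054. It was 397 with chromosome 8 left out and 501 with chromosomes 8 and 14 centred, both chosen after seeing the data. Leaving out 1 library gave 530 to 2679. Over 140 named genes the verdict stood in 2211 results of alternatives, weakened below the threshold in 831, and turned for Tet2 alone, whose uncalled log2 fold change was -0.12 without Tet2-Mut replicate 2 and 0.28 without Tet2-Mut replicate 1. With 2 clones, the precision is limited by their number, and a count of 3 reads corresponds to 2.5 to 3.54 normalized counts.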
